A study of Phycomyces blakesleeanus with 24 samples.

Results

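The genes described here encode enzymes that carry carbon from pyruvate through the tricarboxylic acid cycle in Phycomyces blakesleeanus, a filamentous fungus whose sporangiophores, the aerial stalks that bear the spores, respond to light. They are PbPdhE1b (PHYBLDRAFT_36182), Pb2oxodhE2 (PHYBLDRAFT_89425), PbCsb (PHYBLDRAFT_77191), PbFumHa (PHYBLDRAFT_28210) and PbMdha (PHYBLDRAFT_78295), 5 of 14490 genes listed in any table of the series. They were selected by symbol in a RefSeq gene table, and on measured values, since each had a fold change between light and dark that had drawn notice in at least 1 comparison. Their fold changes are therefore a description, and the authors' calls quoted with them are no independent evidence about these genes. All 5 had a row in all 4 tables, so no member was lost to a filter on low values.

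The study grew a wild type strain and ΔL51, labelled a photoreceptors mutant, on potato dextrose agar. RNA came from mycelium, the vegetative hyphae, and from sporangiophores, each kept dark or lit, and the 8 groups had 3 biological replicates apiece. Neither the alleles of ΔL51 nor the intensity and length of the light is given in the sources used here. The authors set aside 4 of 24 libraries for their greater dispersion, which left 2 dark and 3 light libraries of wild type mycelium, 2 dark and 2 light of wild type sporangiophores, 3 dark and 3 light of mutant mycelium, and 2 dark and 3 light of mutant sporangiophores.

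Each comparison reached the deposit as a table by the authors with 1 fold change per gene, so values per library and their spread were not analysed here and the depth is unknown. A positive fold is taken to mean a higher level in light. Only the tables' titles give that direction, as the headers name none, and the title of the mutant mycelium table names its dark group dL5, taken here as ΔL51. The error given with a fold is an approximate standard error (SE), the size of the log2 fold change divided by the square root of its likelihood ratio. A gene is said to be called where the authors' edgeR likelihood ratio test gave it a false discovery rate (FDR, the p-value adjusted over the whole table) under 0.05. Whether the replicates came from separate cultures is not stated beyond the word biological, and no marker of mycelium or sporangiophores was checked, because each table compares light with dark inside 1 structure.

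The tricarboxylic acid cycle oxidises acetyl groups in mitochondria and passes their electrons to the respiratory chain. The pyruvate dehydrogenase complex feeds it with acetyl-CoA, and citrate synthase joins that acetyl group to oxaloacetate. The oxoglutarate dehydrogenase complex, built on the same plan of E1, E2 and E3 components, makes succinyl-CoA further round the cycle, fumarase hydrates fumarate to malate, and malate dehydrogenase oxidises malate back to oxaloacetate. Fungi can also hold fumarase and malate dehydrogenase outside mitochondria, and the gene table does not say where the products of PbFumHa and PbMdha work.

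All 5 genes lay in the upper part of the expression range. In the 3 tables that share a value of average log2 CPM (a library's reads for the gene scaled by its total, on the log2 scale, averaged over libraries), PbMdha stood at 10.79 and PbPdhE1b at 10.54, at the 99.6 and 99.4 percentiles of 14410 genes in the authors' deposited table. PbCsb followed at 8.06, Pb2oxodhE2 at 7.21 and PbFumHa at 7.09, the last at the 89.3 percentile in the authors' deposited table. Per kilobase of gene span the order of the levels was the same, with 1179 CPM for PbMdha, 880 for PbPdhE1b, 139 for PbCsb, 101 for Pb2oxodhE2 and 54.1 for PbFumHa. PbMdha and PbPdhE1b thereby ranked 1 and 2 among the 24 genes of a pyruvate and tricarboxylic acid cycle list, and PbFumHa ranked 18. The gene span holds introns, the RNA was amplified before sequencing, and no spread of a level was at hand, so it was not tested which neighbours in this order differ. In the separate mutant mycelium table the order was also PbMdha (10.87), PbPdhE1b (10.71), PbCsb (8.33), Pb2oxodhE2 (7.47) and PbFumHa (7.24), as average log2 CPM in the authors' deposited table.

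In outline, PbFumHa was the gene called in wild type mycelium, where it was higher in light, and the other 4 genes were those called in sporangiophores, higher in light in the wild type and lower in light in the mutant. None of the 5 was called in mutant mycelium. The pair of sporangiophore calls was found for 5.62% of all genes, and for 34.9% of those with an average log2 CPM of at least 7, where all 5 lie. In the authors' deposited table of wild type mycelium 9.86% of all genes were called higher. In that of mutant mycelium 0.541% were called higher and 0.576% lower.

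**Figure D1:**
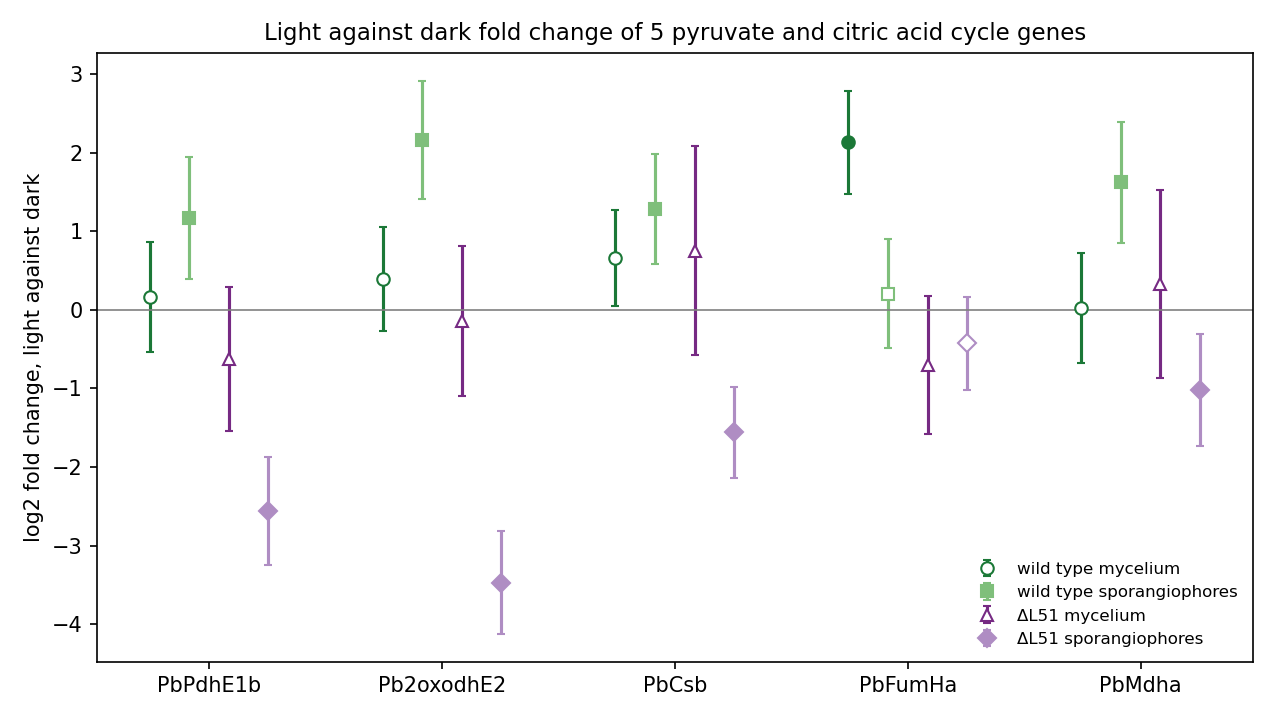
Log2 fold change of light against dark (vertical axis) for the 5 genes (horizontal axis) in the 4 comparisons, with approximate 95% intervals as bars; filled symbols are calls at an FDR under 0.05. PbPdhE1b, Pb2oxodhE2, PbCsb and PbMdha have filled symbols above 0 in wild type sporangiophores and below 0 in ΔL51 sporangiophores, and PbFumHa has its 1 filled symbol in wild type mycelium at 2.13.

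PbPdhE1b carries by its symbol the E1 component of pyruvate dehydrogenase, which decarboxylates pyruvate. In wild type sporangiophores its log2 fold change was 1.17 ± 0.39 (SE), a 2.25-fold higher level in light, with an FDR of 0.0398 in the authors' deposited table. In mutant sporangiophores it was -2.56 ± 0.35 (SE), or 5.89-fold lower in light, with an FDR of 8.0e-12 in the authors' deposited table. In mycelium the authors' deposited tables gave 0.16 ± 0.36 (SE, FDR 0.996) for the wild type and -0.62 ± 0.47 (SE, FDR 0.736) for the mutant. The wild type sporangiophore call sat close to the threshold, and the mutant one was far inside it.

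Pb2oxodhE2 had the largest fold of the 5 in each strain's sporangiophores. Its symbol reads as the E2 component of a 2-oxo acid dehydrogenase, the core enzyme that passes the acyl group to coenzyme A, taken here as that of oxoglutarate dehydrogenase, though the gene table gives no product name. In wild type sporangiophores its log2 fold change was 2.16 ± 0.38 (SE), 4.48-fold higher in light, with an FDR of 2.2e-06 in the authors' deposited table. In mutant sporangiophores it was -3.47 ± 0.33 (SE), 11.1-fold lower in light, with an FDR of 3.2e-23 in the authors' deposited table. That value was the 291st lowest of 14410 genes there. In mycelium its log2 fold change was 0.39 ± 0.34 (SE, FDR 0.55) in the wild type and -0.14 ± 0.49 (SE, FDR 1) in the mutant in the authors' deposited tables, neither of which was called.

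PbCsb, a citrate synthase gene by its symbol, had folds in the same directions. Its log2 fold change was 1.28 ± 0.36 (SE, FDR 0.0074), 2.42-fold higher in light, in the authors' deposited table of wild type sporangiophores. In mutant sporangiophores it was -1.56 ± 0.29 (SE, FDR 2.2e-06), 2.95-fold lower in light, in the authors' deposited table. PbCsb had positive values in mycelium of either strain, 0.66 ± 0.31 (SE, FDR 0.157) in the wild type and 0.75 ± 0.68 (SE, FDR 0.846) in the mutant, and was called in neither in the authors' deposited tables. The mutant mycelium value carried the widest error of the 20 folds described here, with an approximate 95% interval from -0.58 to 2.08.

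PbFumHa, a fumarase gene by its symbol, differed from the other 4 in where it was called. In wild type mycelium its log2 fold change was 2.13 ± 0.33 (SE), 4.37-fold higher in light, with an FDR of 2.0e-08 in the authors' deposited table. In wild type sporangiophores it was 0.21 ± 0.35 (SE, FDR 0.826) in the authors' deposited table. In the mutant it was -0.70 ± 0.45 (SE, FDR 0.736) in mycelium and -0.43 ± 0.30 (SE, FDR 0.398) in sporangiophores in the authors' deposited tables. The approximate 95% interval ran from 1.47 to 2.78 in wild type mycelium and from -0.48 to 0.90 in wild type sporangiophores. PbFumHa was chosen on these folds and the intervals are approximate, so they are a description. How many of all genes have intervals as far apart was not counted. The difference between comparisons was not tested.

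PbMdha, a malate dehydrogenase gene by its symbol, had the highest level of the list and, in the mutant, the smallest of the 4 called folds. Its log2 fold change was 1.62 ± 0.39 (SE, FDR 0.0011), 3.08-fold higher in light, in the authors' deposited table of wild type sporangiophores. In mutant sporangiophores it was -1.02 ± 0.36 (SE), 2.03-fold lower in light, with an FDR of 0.0355 in the authors' deposited table, again close to the threshold. In mycelium the values were 0.02 ± 0.36 (SE, FDR 1) for the wild type and 0.33 ± 0.61 (SE, FDR 1) for the mutant in the authors' deposited tables.

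Counted by comparison in the authors' deposited tables, 1 of the 5 genes was called higher in wild type mycelium, against 9.86% of all genes, and edgeR called 0 lower (0 at an unadjusted p under 0.05), against 4.18%. For wild type sporangiophores the authors' deposited table called 4 of 5 higher, against 7.23% of all genes, and by edgeR 0 lower (0 at an unadjusted p under 0.05), against 1.18%. For mutant mycelium edgeR called 0 of 5 in the authors' deposited table (0 at an unadjusted p under 0.05), where 0.541% of all genes were called higher and 0.576% lower. For mutant sporangiophores the authors' deposited table called 4 of 5 lower, against 12.3% of all genes, and by edgeR 0 higher (0 at an unadjusted p under 0.05), against 3.31%. These shares stand as background only, because the 5 genes were chosen on the same values. The F reference described in the processing gives larger p-values, so it could not have added calls to these counts of 0. With the trend on log2 CPM and gene span taken out, PbMdha was called higher in mutant sporangiophores, at 1.72. In bulk tissue, fewer cells of a type and less RNA per cell cannot be told apart.

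In the sporangiophore tables the folds of all genes went with expression level. Among the 105 genes with an average log2 CPM from 10 to under 11, the class of PbMdha and PbPdhE1b, 61.0% were called higher in wild type sporangiophores and 78.1% were called lower in mutant sporangiophores in the authors' deposited tables. The median log2 fold change of that class was 1.73 in the wild type and -2.87 in the mutant. PbPdhE1b lay 0.56 below the class median in the wild type, with 34 of the other genes lower than it, and 0.31 above it in the mutant, with 56 lower. PbMdha lay 0.10 below the median in the wild type and 1.84 above it in the mutant, where 24 genes of the class had a higher fold. Among genes as abundant as these, PbPdhE1b was near the middle in either strain, and PbMdha was in the upper part in the mutant, with 80 genes lower.

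For PbCsb, the class from 8 to under 9 held 451 genes, of which 45.7% were called higher in wild type sporangiophores and 59.2% lower in mutant sporangiophores in the authors' deposited tables. PbCsb lay 0.28 above the class median of 1.00 in the wild type and 0.44 below the median of -1.12 in the mutant. For Pb2oxodhE2 and PbFumHa, the class from 7 to under 8 held 833 genes in these tables, with 26.3% called higher in wild type sporangiophores and 38.8% lower in mutant sporangiophores in the authors' deposited tables. Pb2oxodhE2 stood apart from that class, 1.69 above its median of 0.47 in the wild type with 41 genes above it, and 2.95 below its median of -0.52 in the mutant with 39 genes below it. PbFumHa lay 0.26 below the same median in the wild type and 0.09 above it in the mutant.

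In wild type mycelium the class from 7 to under 8 had 22.2% of genes called higher and a median of 0.15 in the authors' deposited table. PbFumHa lay 1.98 above that median, and 22 of the 833 genes had a higher fold. Over all genes of that table the median of the folds other than 0 was 0.39, and relative to it PbFumHa had 1.74 and PbCsb 0.27, while Pb2oxodhE2 was at 0.01, PbPdhE1b at -0.22 and PbMdha at -0.36. With the trend of the folds on log2 CPM and gene span taken out, PbFumHa had 1.70 in wild type mycelium, and Pb2oxodhE2 had 1.58 in wild type and -2.84 in mutant sporangiophores. PbPdhE1b then stood at -0.47 in wild type and -0.05 in mutant sporangiophores, and PbCsb at 0.51 and -0.65. PbMdha stood at -0.14 and 1.72, each opposite in sign to its deposited fold. These values too describe genes chosen on the folds they come from. Taking out the trend moved the share of higher calls among all called genes from 70.2% to 43.6% in wild type mycelium, 86.0% to 61.6% in wild type sporangiophores, 48.4% to 35.0% in mutant mycelium and 21.1% to 39.8% in mutant sporangiophores, and centring moved it to 40.1% in wild type and 35.5% in mutant mycelium. The part that level and span played in the deposited folds was not tested.

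**Figure D2:**
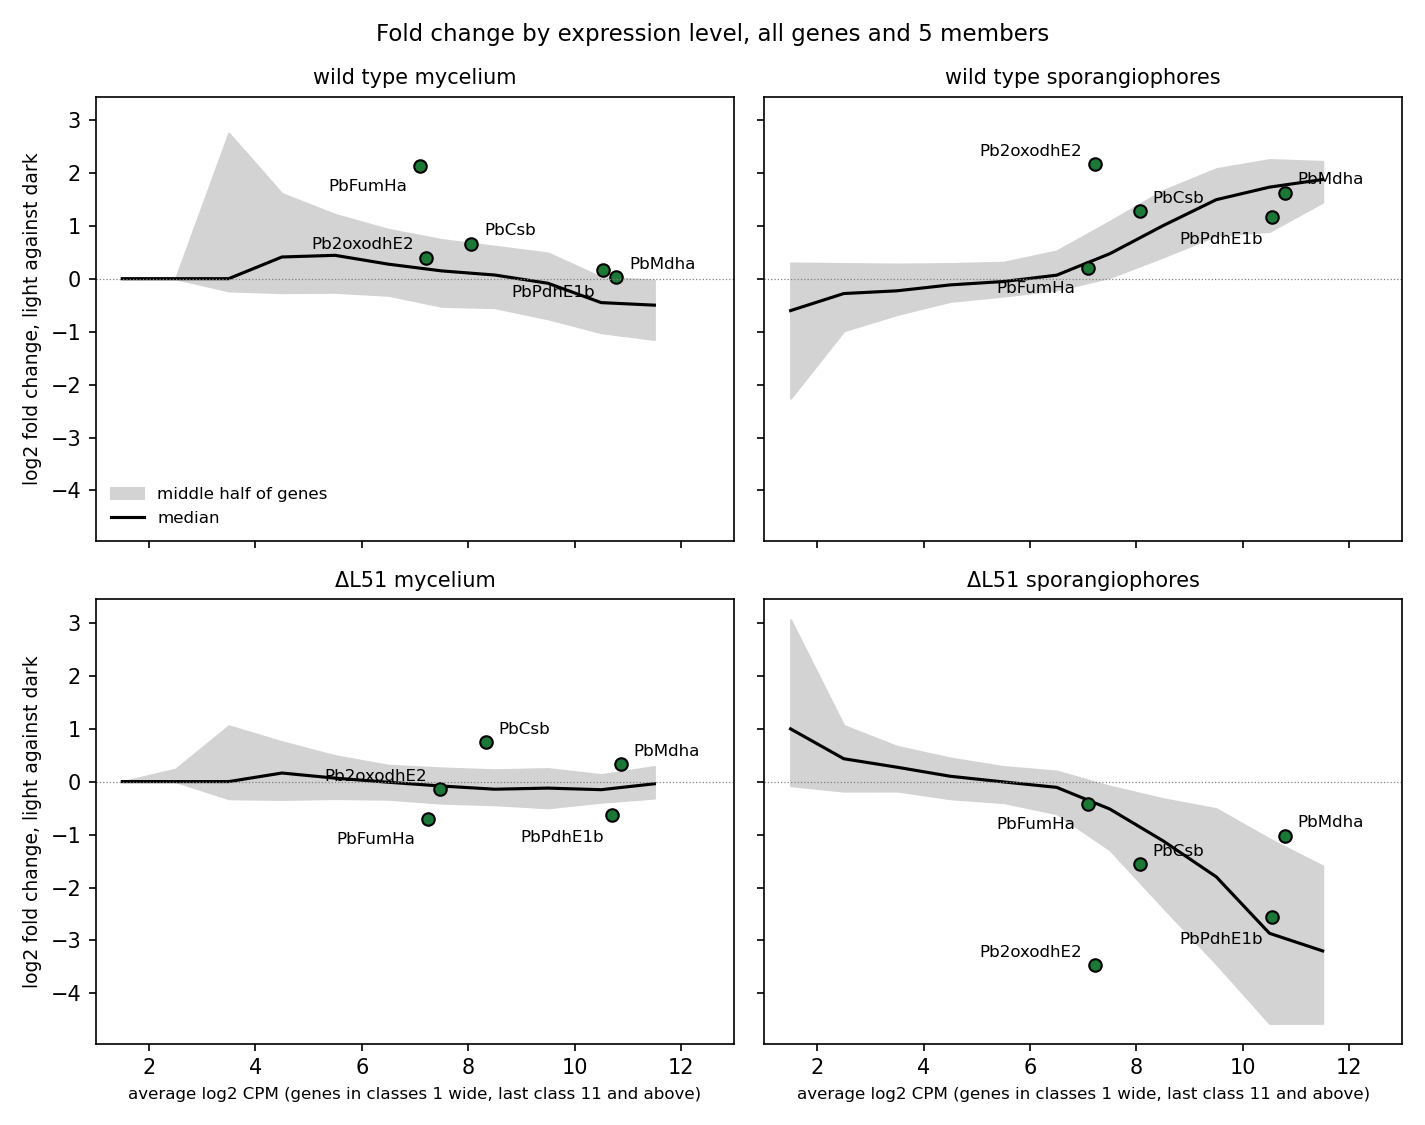
Log2 fold change of light against dark (vertical axis) by average log2 CPM (horizontal axis) in the 4 comparisons; the line is the median and the grey band the middle 50% of genes in classes 1 log2 CPM wide, and the points are the 5 genes. The median climbs to 1.73 in wild type sporangiophores and drops to -2.87 in ΔL51 sporangiophores in the class of PbMdha and PbPdhE1b, and Pb2oxodhE2 lies outside the band in both. Also outside the middle 50% of their own class are PbMdha in ΔL51 sporangiophores and PbPdhE1b, PbCsb and PbFumHa in wild type mycelium. So are PbPdhE1b, PbCsb, PbFumHa and PbMdha in ΔL51 mycelium. The drawn band joins class midpoints, and PbCsb and PbMdha lie close to its edge in wild type mycelium.

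Genes that share an enzyme or complex with a member gave a mixed picture, and 10 genes fall into these groups beside Pb2oxodhE2, which has no second symbol of its stem in the gene table. For pyruvate dehydrogenase, PbPdhE1a had an FDR of 0.0162 and a log2 fold change of 1.08 in wild type mycelium, where PbPdhE1b had 0.16, in the authors' deposited table. Centred on the median fold of that table it had 0.69 and lost its call (adjusted p = 0.19, normal reference). With the trend on log2 CPM and gene span taken out it had 1.16 and kept its call (adjusted p = 0.0091, normal reference). In wild type sporangiophores PbPdhE1a had 0.81 (FDR 0.339) and was not called, and in mutant sporangiophores it was called lower at -1.96 (FDR 6.7e-07), beside -2.56 for PbPdhE1b, in the authors' deposited tables. In its class, log2 CPM from 10 to under 11, 78.1% of 105 genes were called lower in mutant sporangiophores, with a median of -2.87. With the trend taken out PbPdhE1a had 0.18 in mutant sporangiophores and was not called. PbPdhE2, by its symbol the acetyltransferase core of the same complex, was called nowhere, with 0.15 in wild type and -0.54 in mutant sporangiophores in the authors' deposited tables. PbPdhPCa, whose role the gene table does not give, had 0.02 and -0.23 there and was not called either in the authors' deposited tables. The letters a and b of the E1 genes may stand for subunits or for copies, and the gene table does not say which.

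Of the citrate synthase genes, PbCsa had a higher level than PbCsb, 282 against 139 CPM per kilobase of gene span, and was called in none of the comparisons in the authors' deposited tables. PbCsa had a log2 fold change of 1.03 (FDR 0.149) in wild type sporangiophores and of -0.56 (FDR 0.37) in mutant sporangiophores, where PbCsb had 1.28 and -1.56, in the authors' deposited tables. In mutant mycelium PbCsa stood at -0.89 (FDR 0.605) and PbCsb at 0.75, opposite in sign and neither called, in the authors' deposited table.

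The fumarase genes differed most in wild type mycelium, where PbFumHb had 0.26 (FDR 0.733), which is 1.87 below PbFumHa on the log2 scale, in the authors' deposited table. PbFumHb was called in none of the 4 comparisons, with a log2 fold change of -0.54 in sporangiophores of the wild type, 0.58 in mycelium of the mutant and -0.22 in its sporangiophores in the authors' deposited tables. PbFumHb had the higher level, at 103 against 54.1 CPM per kilobase.

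Both malate dehydrogenase genes were called in sporangiophores of either strain. PbMdhb had 1.08 (FDR 0.045) in the wild type and -1.07 (FDR 0.0053) in the mutant, beside 1.62 and -1.02 for PbMdha, in the authors' deposited tables. In the class of PbMdhb, log2 CPM from 9 to under 10, 60.1% of 218 genes were called higher in wild type sporangiophores, with a median of 1.49. In mutant sporangiophores 69.7% of that class were called lower, with a median of -1.80, in the authors' deposited tables. PbMdhb stood at 456 and PbMdha at 1179 CPM per kilobase of gene span. In mycelium PbMdhb had 0.75 (FDR 0.0806) in the wild type and -0.62 (FDR 0.846) in the mutant in the authors' deposited tables. How the authors assigned reads that match more than 1 gene was not given in the sources used here, so values of genes alike in sequence are uncertain. Differences between copies were not tested.

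**Figure D3:**
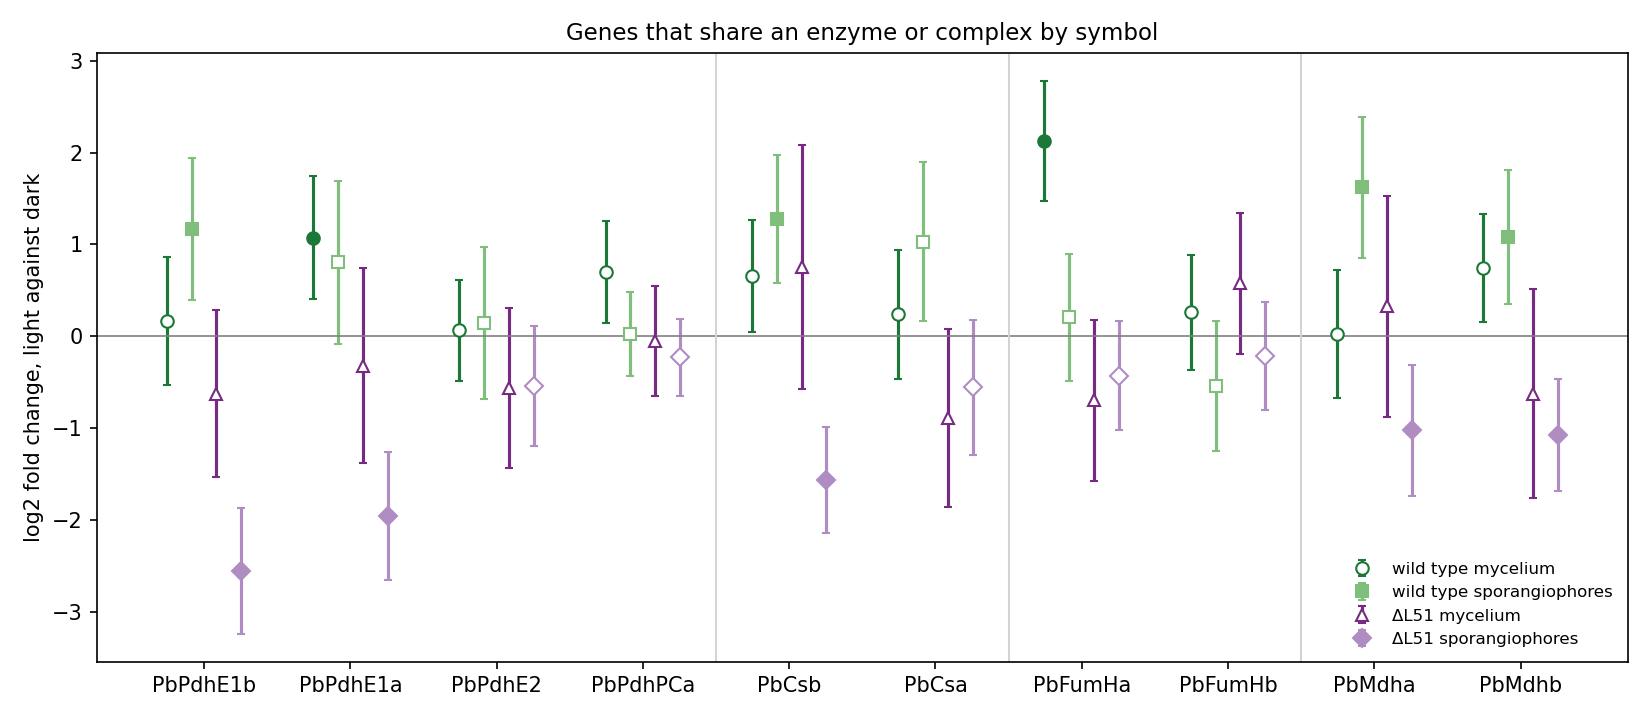
Log2 fold change of light against dark (vertical axis) for members and the genes of the same enzyme or complex by symbol (horizontal axis, groups parted by grey lines), with approximate 95% intervals; filled symbols are calls at an FDR under 0.05. PbMdha and PbMdhb are called in the same directions in sporangiophores, PbCsb is called where PbCsa is not, and PbFumHa is called in wild type mycelium at 2.13 while PbFumHb stands at 0.26.

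The list of 24 genes holds symbols that begin with Pb and name a pyruvate dehydrogenase or tricarboxylic acid cycle enzyme, and no succinate dehydrogenase is among them. Of the 24, 19 are not members. In the authors' deposited table of wild type mycelium, 6 of these were called higher and 1 lower, with a median log2 fold change of 0.56 beside 0.39 for the 5 members and 0 for all genes, of which 3193 had a fold of exactly 0. Without those the median of all genes was also 0.39. Called higher there were 31.6% of the 19, 9.86% of all genes and 19.4% of genes with a log2 CPM of at least 6.22. Called lower were 5.26%, 4.18% and 12.1% of these in the authors' deposited table. Of the 19, all but PbAcod and PbIdhb lie in that range of log2 CPM. The 6 were PbAcoa (1.99), PbAcod (1.97) and PbAcob (0.92), aconitases that turn citrate into isocitrate, PbIdh1b (1.14), an isocitrate dehydrogenase, PbSucCoASa (1.09), a succinyl-CoA ligase subunit by its symbol, and PbPdhE1a, and PbSucCoASb was lower at -0.92 in the authors' deposited table. With folds centred on that 0.39, 2 of the 19 were called higher (PbAcoa and PbAcod) and 2 lower (PbSucCoASb and PbIdh2a), so that PbAcob, PbIdh1b, PbSucCoASa and PbPdhE1a lost their calls. With the F reference 4 of the 6 higher calls were left, PbAcob and PbPdhE1a being lost, and PbSucCoASb was no longer called. With the trend taken out, 5 of the 19 were called higher in wild type mycelium (PbAcoa, PbAcod, PbMdhb, PbPdhE1a and PbSucCoASa). Called lower in that setting were 2, PbIdh2a and PbSucCoASb. The authors' deposited table of wild type sporangiophores called 3 of 19 higher (PbAcoc at 2.25, PbIdh2a at 1.14 and PbMdhb) and by edgeR 0 lower (0 at an unadjusted p under 0.05), with a median of 0.33 beside 1.28 for the members and -0.05 for all genes. Of the 3, PbAcoc alone was called with the F reference or with the trend taken out, and in the latter setting PbFumHb was called lower at -1.19 (adjusted p = 0.0403, normal reference). The authors' deposited table of wild type sporangiophores called higher 15.8% of the 19, 7.23% of all genes and 27.9% of genes with a log2 CPM of at least 6.22.

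In mutant mycelium 3 of 19 were called lower (PbAcoa at -2.29, PbAcod at -1.74 and PbIdh2c at -1.98) and by edgeR 0 higher (0 at an unadjusted p under 0.05), with a median of -0.56 beside -0.14 for the members and 0 for all genes in the authors' deposited table. All 3 calls were lost with the F reference, where PbAcoa had an adjusted p of 0.0853, PbAcod of 0.143 and PbIdh2c of 0.165, while centring kept all 3. The authors' deposited table of mutant mycelium called lower 15.8% of the 19, 0.576% of all genes and 1.47% of genes with a log2 CPM of at least 6.11. In mutant sporangiophores 6 of 19 were called lower and by edgeR 0 higher (0 at an unadjusted p under 0.05), with a median of -0.54 beside -1.56 for the members and 0.05 for all genes in the authors' deposited table. Called lower in that table were 31.6% of the 19, 12.3% of all genes and 38.9% of genes whose log2 CPM reached 6.22. The 6 were PbIdh2a (-3.52), PbAcoc (-2.47), PbIdh1a (-2.31), PbPdhE1a (-1.96), PbMdhb (-1.07) and PbSucCoASa in the authors' deposited table. Of these 6, 3 were still called lower once the trend was removed (PbAcoc, PbIdh1a and PbIdh2a), and PbCsa was called higher at 1.02 (adjusted p = 0.0494, normal reference). As the members were chosen on these folds, nothing is read from their medians.

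All 5 members had a positive fold in wild type and a negative fold in mutant sporangiophores, and 4 of them were called in both. The strains share no library. The opposite signs held for 20 of the 24 list genes (83.3%) and for 4428 of all 14410 genes (30.7%), but for 1277 of the 1658 genes with an average log2 CPM of at least 7 (77.0%), the range in which all 5 members lie. Called higher in the wild type and lower in the mutant were 7 of 24 list genes (29.2%), 5.62% of all genes and 34.9% of those with a log2 CPM of at least 7 in the authors' deposited tables. On the log2 scale the wild type fold exceeded the mutant fold by 5.64 for Pb2oxodhE2, 3.73 for PbPdhE1b, 2.84 for PbCsb, 2.65 for PbMdha and 0.63 for PbFumHa. In mycelium the same difference was 2.83 for PbFumHa, 0.79 for PbPdhE1b, 0.53 for Pb2oxodhE2, -0.09 for PbCsb and -0.30 for PbMdha. These differences between strains were not tested.

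**Figure D4:**
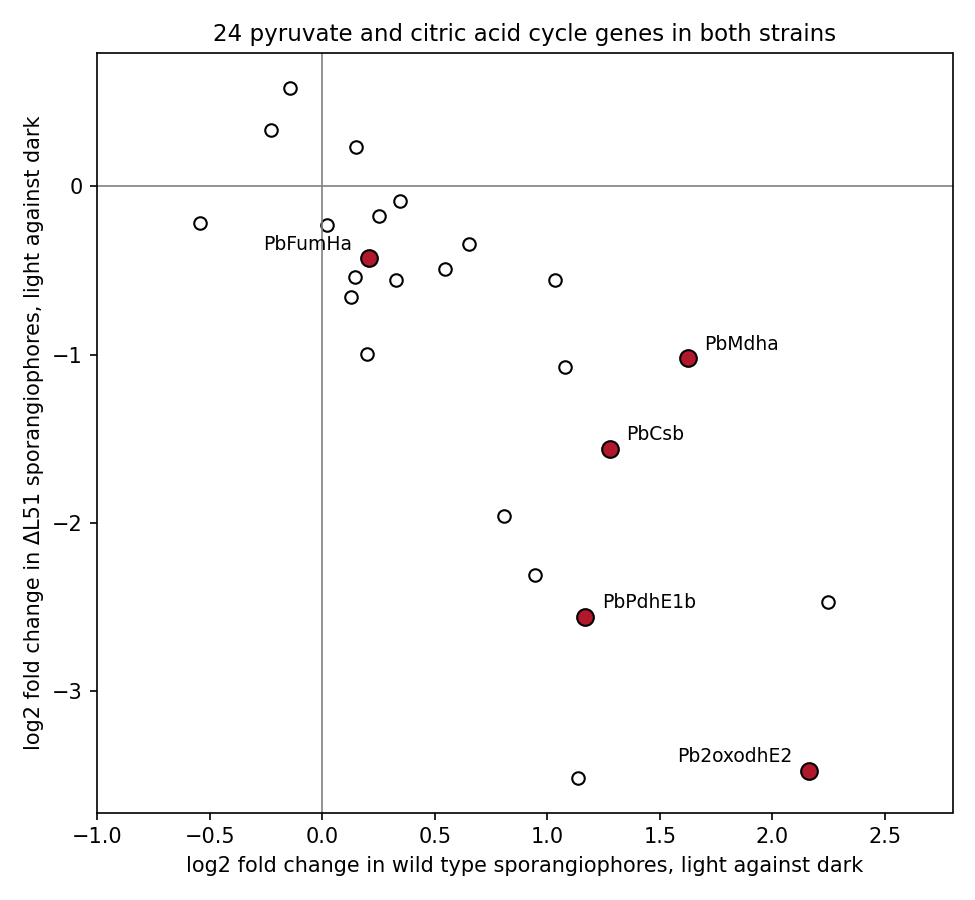
Log2 fold change of light against dark in ΔL51 sporangiophores (vertical axis) against that in wild type sporangiophores (horizontal axis) for the 24 list genes, with the 5 members filled in red. The 5 members and 15 other genes lie at the lower right, positive in the wild type and negative in the mutant, with Pb2oxodhE2 at 2.16 and -3.47.

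Likeness of pattern was measured as the Euclidean distance between log2 fold changes over the 4 comparisons, among 171 genes with a symbol, a row in every table and a level no lower than the median log2 CPM. Others of the 14162 genes in all 4 tables could not be found as neighbours. How many of the 171 name respiratory subunits was not counted, so the kinds of neighbour below may reflect that choice of candidates. Nearest to PbPdhE1b were QCR7 at a distance of 0.51, ATP4 at 0.68 and leuC at 0.69, against a median distance of 2.28. QCR7 and ATP4 name subunits of respiratory complex III and of ATP synthase in yeast. Nearest to Pb2oxodhE2 were Ndufa5 (0.64), NDUFS4 (0.70) and COX9 (0.71), named for subunits of respiratory complex I and of cytochrome oxidase, against a median of 3.07.

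PbCsb was nearest to Ndufs3 (0.64), MadB (0.75), a gene related to White Collar 2, and Ndufa6 (0.99), against a median of 2.12. PbMdha was nearest to CK2A (0.60), Pp2B2 (0.67) and Gpb2 (0.72), against a median of 1.92. For PbFumHa the nearest gene was farther off than the nearest of any other member, with QCR1_3 at 0.91, PbIdh1b at 1.09 and PbSucCoASa at 1.19. Its median distance was 2.81. With 4 values a gene, and levels that go with the fold in sporangiophores, these distances describe the tables and nothing more.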

How the data were processed

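Total RNA was prepared with Trizol and a MessageAmp II kit, according to the labels' protocols. The submitters' processing notes name Bowtie and edgeR without versions, and the genome build, gene models and counting of reads are not given in the sources used here. The series design text names 4 libraries left out of the final analysis for their dispersion, a choice made on the outcome. The authors' 4 deposited tables hold, per the file headers, a log2 fold change, an average log2 CPM, a likelihood ratio score, a p-value and an FDR for each gene. Checked on each deposited table, the p-value is what a chi-square distribution (1 degree of freedom) gives for the likelihood ratio, and the FDR is its Benjamini-Hochberg adjustment. As values per library were not used here, there is no count model and the depth is unknown. Of the tables, 3 share a log2 CPM for all 14410 genes and the mutant mycelium table (14242 genes) differs.

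Row IDs were matched to the number in locus tags of RefSeq assembly Phybl2 (14355 of 14410, 99.6%). Alternatives, planned for the members and applied to the other 19 list genes after the data were seen, were an FDR under 0.01, a log2 fold change of at least 1, centring on the median fold other than 0, a robust spline trend (5 degrees of freedom each) on log2 CPM and gene span taken out, an F reference with 1 and 12 degrees of freedom, and adjustment over genes at or above the median log2 CPM. The 12 degrees of freedom were a setting chosen here, as those of the authors' fits are not given. Fewer would leave no more calls. Centred and trend-free folds were called from the approximate SE. Classes of log2 CPM were added after the data were seen. Named genes are the 5 members, genes that share a member's symbol stem, called genes of the list of 24, and the 3 genes nearest each member in pattern. The members and lists were chosen with earlier results of these data known. Python 3.11.15, statsmodels 0.14.6 and scipy 1.17.1 were used.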

Additional observations from a re-analysis of the deposited data

How the results depend on the processing

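The counts of called members changed by more than 1.5 times under 2 of the settings tried. With the trend on log2 CPM and gene span taken out, 1 of 5 in place of 4 was called higher in wild type sporangiophores, and in mutant sporangiophores 1 in place of 4 was called lower and 1 in place of 0 higher. With the F reference, 2 of 5 were called higher in wild type sporangiophores, where PbPdhE1b and PbCsb lost their calls, and PbMdha lost its call in mutant sporangiophores. Since the members were chosen on these folds, such calls show only what the setting changes. Folds of called genes that changed sign did so with the trend taken out, namely PbMdha to -0.14, PbMdhb to -0.20 and PbPdhE1b to -0.47 in wild type sporangiophores, and PbMdha to 1.72, PbMdhb to 0.67, PbPdhE1a to 0.18 and PbSucCoASa to 0.25 in mutant sporangiophores. The cause was not tested. At an FDR under 0.01, PbPdhE1b in wild type and PbMdha in mutant sporangiophores were no longer called. No paired analysis was possible because the tables hold no values per library, and for the same reason leaving out a replicate and other normalizations were not run.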
